A study of Mus musculus with 12 samples.

Results

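The 10 genes described here are Fgf21, Trib3, Ddit3, Atf4, Chac1, Asns, Sesn2, Hspa5, Hyou1 and Xbp1, genes of the integrated stress response and of the endoplasmic reticulum (ER) stress response, taken by symbol from a table of 31332 genes. All 10 were present, and all 10 were among the 17268 genes that passed the filter on low counts. RNA was counted in 12 libraries of thymic epithelial cells, the stroma that supports T cell development, sorted from 2-month-old mice of the strain C57BL6/J. In the controls the genes of both liver X receptors, LXR alpha (Nr1h3) and LXR beta (Nr1h2), had loxP sites (floxed alleles) and no Cre was present. These receptors sense oxysterols. The Cre libraries carried these floxed alleles and FoxN1-Cre, a recombinase driven by regulatory sequence of Foxn1, the transcription factor of thymic epithelium. Each genotype was measured in cortical cells (cTEC), which support early T cell development, and in medullary cells (mTEC), which display tissue antigens. The 4 groups of 3 were control cTEC (libraries 7 to 9), Cre cTEC (10 to 12), control mTEC (1 to 3) and Cre mTEC (4 to 6). All libraries, controls included, carried the floxed alleles, and no library had Cre without them. Nothing in the labels ties a library to an animal, so p-values measure the spread between these libraries, which may be technical.

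In the integrated stress response, the kinases PERK (Eif2ak3), GCN2 (Eif2ak4), PKR (Eif2ak2) and HRI (Eif2ak1) phosphorylate the initiation factor eIF2, which lowers general translation and favours translation of ATF4. ATF4 and its target CHOP (Ddit3) then raise genes for amino acid supply, redox balance and feedback control. In the ER stress response, PERK, IRE1 (Ern1) and ATF6 sense unfolded protein in the ER. IRE1 splices Xbp1 mRNA, and the spliced form and ATF6 raise chaperone genes such as Hspa5 and Hyou1. Fgf21 encodes an endocrine growth factor best known from liver and induced by ATF4 in several tissues. Much of this signalling acts through phosphorylation, splicing and translation, which counts of reads per gene do not measure.

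The promoter windows show which genes carry, near the start, the letters that these factors are known to bind, and 5 stretches are printed for that reason. They come from RefSeq, build GRCm38.p6, in windows from 250 bases before to 50 bases after the annotated start, which were found for 9 of the 10 genes (not for Hyou1). The C/EBP-ATF response element, the site of ATF4 with a partner, was searched as TGATGNAAN on both strands and is in capitals in the first 4 sequences. The ER stress response element was searched as CCAAT, then any 9 bases, then CCACG, and is in capitals in the sequence of Hspa5.
Fgf21: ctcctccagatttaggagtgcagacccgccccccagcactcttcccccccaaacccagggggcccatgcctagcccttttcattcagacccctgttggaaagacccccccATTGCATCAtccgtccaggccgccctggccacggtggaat
Chac1: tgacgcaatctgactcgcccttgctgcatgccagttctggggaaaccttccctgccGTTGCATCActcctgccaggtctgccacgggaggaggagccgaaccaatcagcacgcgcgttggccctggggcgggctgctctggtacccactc
Asns: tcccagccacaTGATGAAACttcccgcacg
Trib3: attagctcaggTTTACATCAgccgggcggg
Hspa5: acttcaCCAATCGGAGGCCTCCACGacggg
The Fgf21 stretch is chr7:45615591-45615740 on the minus strand, with its match at bases -140 to -132 from the start. The Chac1 stretch is chr2:119350992-119351141 on the plus strand (match at -194 to -186), and the Asns stretch is chr6:7693214-7693243 on the minus strand (match at -23 to -15). The Trib3 stretch is chr2:152344029-152344058 on the minus strand and lies just inside the transcript, with its match at bases 14 to 22. The Hspa5 stretch is chr2:34772019-34772048 on the plus strand (match at -65 to -47).

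Of the 9 windows, 4 held the C/EBP-ATF element, against 3.954% of 32851 promoter windows. In Fgf21, Chac1 and Trib3 it reads on the strand opposite to the gene, as TGATGCAAT, TGATGCAAC and TGATGTAAA, and in Asns on the strand of the gene, as TGATGAAAC. The ER stress element stood in 1 of the 9 windows and in 0.119% of all windows. The XBP1 site TGACGTG, which does not overlap it, was also found in the Hspa5 window only (bases -157 to -151), against 2.012% of all windows. A strict LXR element (a DR4 direct repeat) was in none of the 9 and in 0.015% of all windows. A match is a description of these letters, and binding was not measured here. Only these letters in these windows were searched, so a gene without a match may still have a site.

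The libraries held 4804697 to 11159013 counts each, and levels are given as CPM (TMM-scaled counts relative to the library total), in which 1 count was worth 0.0896 to 0.193. Nr1h2, 1 of the 2 floxed genes, was lower with Cre in both cell types (log2 fold changes -0.58 and -0.63, adjusted p = 0.00566 and 0.0158, the second not past the threshold when library 2, 3 or 5 was left out, at up to 0.131), whereas Nr1h3 was low throughout and did not pass. Reads summed over a gene say nothing of a deleted part. Foxn1, whose regulatory sequence drives the Cre, was also lower with Cre, going from a mean of 317 to 111 CPM in cTEC and of 254 to 82.3 CPM in mTEC (edgeR log2 fold changes -1.53 and -1.63, adjusted p = 0.00851 and 0.0216). The cTEC call missed the threshold with the robust fit, and the mTEC call with upper-quartile factors, DESeq2 and the robust fit and when library 1, 3 or 5 was left out. Without library 4 the mTEC value was -2.51. This fall goes with every genotype comparison here, and its part in them was not tested. Of 13 tested mTEC markers, all 13 were higher in control mTEC than in control cTEC, and 11 of 14 cTEC markers were lower. Library 11, a Cre cTEC library with the fewest counts, stood apart. Its correlation with library 10 was 0.962 across genes, the lowest within any group. In sorted bulk RNA, fewer cells of a type and less RNA per cell cannot be told apart.

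Fgf21 and Trib3 rose in Cre cTEC, and the other 8 genes did not pass the test there. The threshold was an adjusted p of 0.05 in edgeR's quasi-likelihood test over all genes, by which 9.01% of all genes tested were called in this comparison. The median log2 fold change was 0.20 over the 10 genes and -0.02 over all genes tested, and 7 of the 10 were positive. In mTEC, Trib3 was lower with Cre and the other 9 did not pass, where 2.07% of all genes were called. The median there was -0.23 against 0.01, and 9 of the 10 were negative. The genotype effects differed between the cell types for Fgf21, Trib3 and Hyou1, where 4.01% of all genes were called, and all 3 had the higher effect in cTEC. These 3 comparisons share libraries, so their counts are not independent.

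**Figure D1:**
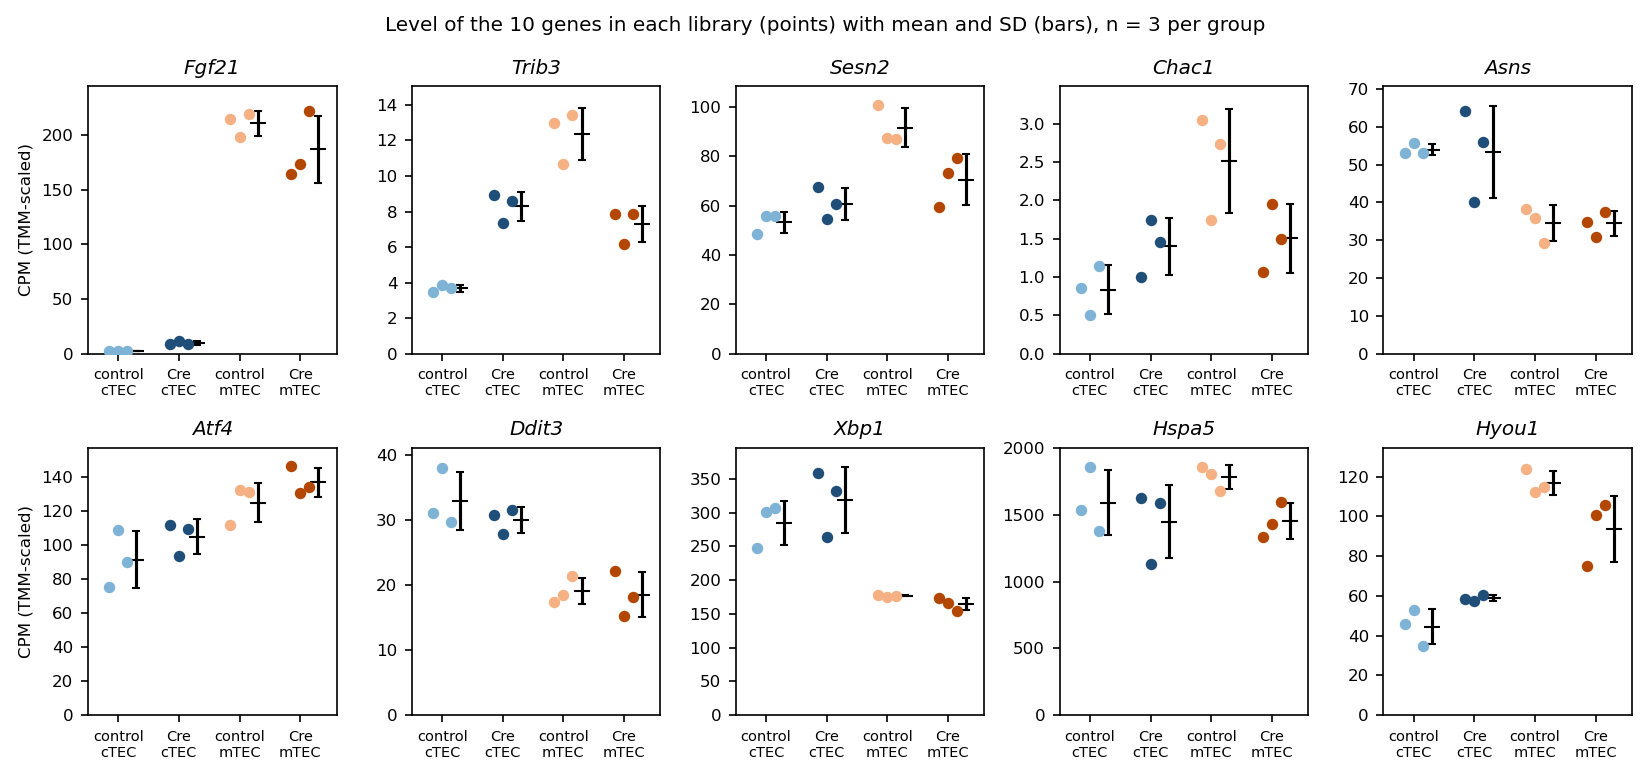
Level of each of the 10 genes in every library (points, TMM-scaled CPM on the vertical axes, each from 0) in the 4 groups, with the mean and SD of the 3 libraries beside them. Fgf21 is near 0 in cTEC on this scale (at most 11.8 CPM) and between 165 and 222 CPM in mTEC, while Trib3 in the 3 Cre cTEC libraries overlaps Cre mTEC.

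Fgf21 was a gene of mTEC in these libraries, and it rose about 4-fold in Cre cTEC from a low level. In control cTEC it stood at 2.24, 2.51 and 2.28 CPM, which were 13, 15 and 16 counts. In Cre cTEC it stood at 8.48, 11.8 and 9.04 CPM, which were 76, 61 and 62 counts. Each Cre cTEC library was above each control, and library 11 was the highest. The log2 fold change was 2.03 (SE 0.23, fold 4.07, 95% confidence interval 1.54 to 2.51, adjusted p = 1.9e-05, edgeR), and it lay between 1.88 and 2.13 in all 20 alternatives, all past the threshold. In mTEC the controls held 215, 198 and 220 CPM and the Cre libraries 165, 174 and 222 CPM. These groups overlapped, and the value of -0.17 (SE 0.12, 95% confidence interval -0.41 to 0.07, adjusted p = 0.554, edgeR) did not pass. The 2 effects differed by 2.20 (SE 0.26, adjusted p = 0.000356, edgeR), and this held in all 19 alternatives.

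The gap between the cell types in Fgf21 was 89.4-fold in controls (211 ± 11.4 against 2.34 ± 0.149 CPM, SD, n = 3) and 19.5-fold in Cre libraries (187 ± 31 against 9.76 ± 1.76 CPM). On the log2 scale these gaps were 6.48 (SE 0.18, adjusted p = 5.21e-15, edgeR) and 4.28 (SE 0.15, adjusted p = 8.37e-14, edgeR). Every Cre cTEC library lay far below every mTEC library.

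Medullary markers are given here because Fgf21 was so much higher in mTEC. Their summed level (14 genes) lay between 5370 and 5727 CPM in control cTEC and between 4188 and 5144 CPM in Cre cTEC, against 12590 to 12747 CPM in control mTEC. In cTEC most of this sum was H2-Aa, Krt5 and Krt14. They stood at 2702, 1360 and 862 CPM in library 8, a control, and at 2876, 935 and 437 CPM in library 10, with Cre. The sum therefore says little of the markers that were low in cTEC. In Cre cTEC the list moved in both directions: Cd40, Fezf2 and Tnfrsf11a rose, Krt5 and Krt14 fell, and 7 of the 13 tested did not pass. Aire, the regulator of tissue antigens that marks mature mTEC, was at 9.99, 9.88 and 10.8 CPM in the control cTEC libraries and stood at 2.90, 9.46 and 4.81 CPM in Cre cTEC, so all 3 Cre values were below the controls (adjusted p = 0.0848, edgeR, past the threshold without library 6 or 11). The costimulatory gene Cd80 stood at 2.58, 2.68 and 1.85 CPM in the control cTEC libraries and stood at 1.00, 3.47 and 0.583 CPM in Cre cTEC, and these overlapped. Fezf2, a regulator of other tissue antigens, went the other way, from 22.6, 24.3 and 24.5 CPM to 51.1, 38.6 and 30.2 CPM (log2 fold change 0.76, adjusted p = 0.00461, edgeR). Tnfrsf11a (RANK), the receptor that drives mTEC maturation, went from 18.1, 21.9 and 20.5 CPM to 42.3, 35.3 and 29.6 CPM (0.83, adjusted p = 0.000956). Ccl21a was at 0 in 3 groups. The summed level of 14 cTEC markers ran from 12570 to 15390 CPM in control cTEC and from 13676 to 28656 CPM in Cre cTEC, where 6 rose and 1, Foxn1, fell. The part of these markers in the rise of Fgf21 and of Trib3 was not tested.

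The 5 genes whose log2 CPM over the 12 libraries was most like that of Fgf21, among 12343 genes with a mean of at least 5 CPM, were Cdhr1 (Pearson r 0.998), Fgd5 (0.996), Zfp238 (0.995), Gja4 (0.994) and Skint10 (0.994). They were chosen for this likeness, so their values are a description, and most of the likeness comes from the gap between the cell types that the libraries share. Cdhr1, a photoreceptor cadherin, stood at 4.87 ± 0.392, 20.4 ± 3.69, 309 ± 21.1 and 348 ± 12.4 CPM (SD, n = 3) in control cTEC, Cre cTEC, control mTEC and Cre mTEC. Gja4, a gap junction connexin, stood at 2.18 ± 0.312, 7.58 ± 0.446, 94.3 ± 7.8 and 124 ± 15.2 CPM in the same order. Skint10, of a family expressed in thymic epithelium and skin, stood at 19.4 ± 3.12, 39.4 ± 0.517, 362 ± 22.6 and 366 ± 68.5 CPM. In all 3 genes the 3 Cre cTEC libraries lay above the controls and below every mTEC library, as in Fgf21.

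**Figure D2:**
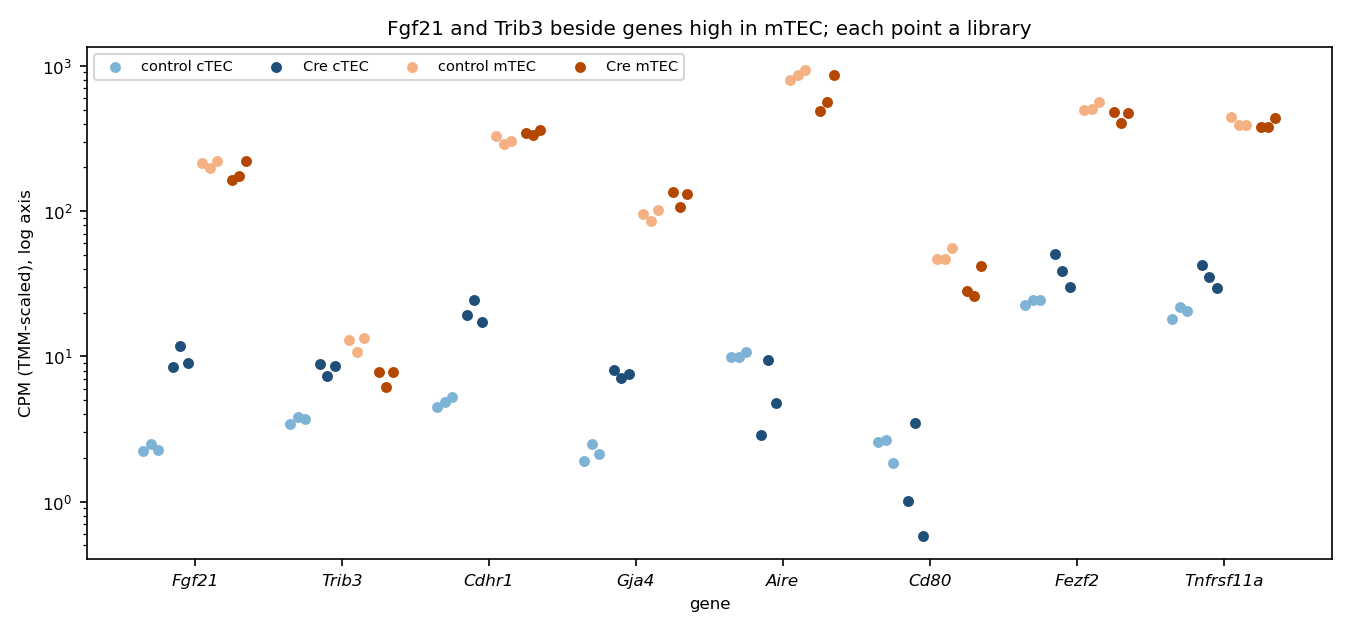
Level of Fgf21, Trib3, 2 genes of like pattern (Cdhr1 and Gja4) and 4 medullary markers in each library (points, TMM-scaled CPM on a log axis) by group. In Cre cTEC Fgf21, Cdhr1, Gja4, Fezf2 and Tnfrsf11a lie above control cTEC in all 3 libraries, while Aire lies below it in all 3 and Cd80 overlaps it.

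The receptors of FGF21 were also compared. FGF21 signals through an FGF receptor together with the co-receptor beta-Klotho (Klb). Klb was at 0.303 to 1.93 CPM over the 12 libraries and did not pass the filter on low counts. Fgfr1, the receptor most used by FGF21, was higher in cTEC (37.0 ± 5.34 against 10.1 ± 1.20 CPM in mTEC, controls, SD, n = 3), by 1.87 on the log2 scale (adjusted p = 7.43e-09, edgeR). Fgfr4 was higher in mTEC (16.3 ± 2.15 against 2.04 ± 0.81 CPM, log2 fold change 3.00, adjusted p = 4.41e-09, edgeR). Of the 9 tested genes of receptors and endocrine FGFs, 1 fell with Cre in cTEC and 8 did not pass. That was Fgfr3, which controls held at 9.30, 8.71 and 9.38 CPM and Cre cTEC at 3.01, 5.79 and 2.48 CPM (edgeR log2 fold change -1.34 with an SE of 0.29, adjusted p = 0.00547). All 3 Cre values were below the controls, and the call held in all 20 alternatives.

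Trib3, the pseudokinase that CHOP and ATF4 induce and that restrains them in turn, moved in opposite directions in the 2 cell types. In control cTEC it stood at 3.44, 3.85 and 3.70 CPM (20, 23 and 26 counts) and in Cre cTEC at 8.93, 7.33 and 8.60 CPM (80, 38 and 59 counts). In mTEC the order was the reverse, as controls held 13.0, 10.7 and 13.4 CPM and Cre libraries 7.88, 6.15 and 7.86 CPM. Neither pair of groups overlapped. The log2 fold change in cTEC was 1.18 (SE 0.22, fold 2.27, adjusted p = 0.00137, edgeR), and it held in all 20 alternatives. In mTEC it was -0.76 (SE 0.19, 1.69-fold lower, adjusted p = 0.0416, edgeR), between -0.86 and -0.65 in the alternatives. With upper-quartile factors, or with any of libraries 1, 2, 3, 4, 5 and 12 left out, it missed the threshold (adjusted p up to 0.254). The difference of the 2 effects was 1.94 (SE 0.29, adjusted p = 0.00121, edgeR) and held in all 19 alternatives.

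Between the cell types, Trib3 differed among controls and not detectably with Cre. Control mTEC stood 3.36-fold above control cTEC (12.4 ± 1.47 against 3.66 ± 0.207 CPM, SD, n = 3, adjusted p = 7.1e-07, edgeR). Cre mTEC and Cre cTEC stood at 7.30 ± 0.992 and 8.29 ± 0.841 CPM (edgeR log2 fold change -0.19 with an SE of 0.20, adjusted p = 0.452). The 5 genes most like Trib3 by the same measure were Fam190a (Pearson r 0.954), Casz1 (0.950), Gab2 (0.943), Tep1 (0.939) and Gga3 (0.928), and their steps were smaller. Gab2, an adaptor of receptor signalling, stood at 7.55, 12.3, 15.3 and 12.6 CPM on average in control cTEC, Cre cTEC, control mTEC and Cre mTEC.

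Chac1, a glutathione-degrading enzyme and a target of ATF4 and CHOP, had the signs of Trib3 but did not pass with genotype. It held 5, 3 and 8 counts in control cTEC (0.861, 0.503 and 1.14 CPM) and 9, 9 and 10 counts in Cre cTEC (1.00, 1.74 and 1.46 CPM). In mTEC it held 34, 16 and 21 counts in controls and 7, 13 and 11 counts with Cre. The groups overlapped in CPM in both cell types. The log2 fold changes were 0.68 (SE 0.50) in cTEC and -0.74 (SE 0.41) in mTEC, with adjusted p = 0.543 and 0.442 (edgeR). Their difference of 1.42 (95% confidence interval 0.06 to 2.78) had an unadjusted p of 0.0422 and an adjusted p of 0.281. In controls Chac1 was 2.94-fold higher in mTEC (adjusted p = 0.00688, edgeR), and with Cre the cell types were not told apart (adjusted p = 0.834).

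Sesn2, a sestrin that restrains mTORC1 when leucine is short, was lower in Cre mTEC in value but did not pass. Control mTEC held 101, 87.3 and 86.9 CPM and Cre mTEC 59.4, 73.0 and 79.3 CPM, with no overlap. The log2 fold change was -0.38 (SE 0.12, unadjusted p = 0.00546, adjusted p = 0.116, edgeR), and it passed with DESeq2, with voom and without library 11. Cre cTEC (67.4, 54.4 and 60.6 CPM) overlapped control cTEC (48.4, 55.9 and 55.6 CPM), and the log2 fold change was 0.19 (adjusted p = 0.454). The difference of effects was 0.57 (SE 0.17, adjusted p = 0.0745, edgeR) and passed in 7 of 19 alternatives. Sesn2 was 1.72-fold higher in mTEC than in cTEC among controls (adjusted p = 2.11e-05), and did not pass among Cre libraries (log2 fold change 0.21, adjusted p = 0.165). GENCODE M21 places another transcript, Gm12981, over 6089 bases of Sesn2 on the same strand, so reads could be split between them.

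Asns, Atf4 and Ddit3 did not follow Fgf21 and Trib3. Asns, the asparagine synthetase and a classical ATF4 target, stood at 53.0, 55.8 and 53.2 CPM in the control cTEC libraries and reached 64.1, 40.1 and 56.0 CPM in Cre cTEC. Library 11 held the low value and library 10 the high value. The log2 fold change was 0.00 in both cell types, with 95% confidence intervals of -0.31 to 0.30 in cTEC and -0.32 to 0.31 in mTEC, so a rise like that of Trib3 lay outside the interval. Atf4 itself stood at 75.4, 109 and 89.7 CPM in the control cTEC libraries and reached 112, 93.2 and 110 CPM in Cre cTEC, and these overlapped (log2 fold change 0.20, 95% confidence interval -0.06 to 0.47, adjusted p = 0.438, edgeR). In mTEC it was at 111, 132 and 131 CPM without Cre and at 146, 130 and 134 CPM with it (0.13, adjusted p = 0.699). Its activity is set mainly by translation, which is not seen in these counts.

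Ddit3, which encodes CHOP, the ATF4 target that acts on Trib3, stood at 31.0, 38.0 and 29.7 CPM in the control cTEC libraries and stood at 30.8, 27.8 and 31.5 CPM in Cre cTEC. The groups overlapped there and in mTEC, where controls held 17.4, 18.4 and 21.4 CPM and Cre libraries 22.1, 15.3 and 18.2 CPM. The log2 fold changes were -0.13 (95% confidence interval -0.43 to 0.17) and -0.03 (-0.35 to 0.28), with adjusted p = 0.741 and 0.951 (edgeR). Ddit3 overlaps Mars by 68 bases and Gm4189 by 15 bases on the opposite strand in GENCODE M21, and the library kit does not mark strand.

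Among the ER stress genes, Hyou1, the oxygen-regulated ER chaperone of the HSP70 kind, differed in its effect between the cell types, while Hspa5 and Xbp1 did not. Control cTEC held 46.0, 52.6 and 35.0 CPM of Hyou1 and Cre cTEC 58.2, 57.5 and 60.6 CPM, with no overlap. Control mTEC held 124, 112 and 115 CPM and Cre mTEC 74.8, 101 and 105 CPM, also with no overlap and in the opposite direction. Neither genotype effect passed alone. They were 0.41 (SE 0.14, adjusted p = 0.0945) in cTEC, which passed with voom, with no filter and without library 4 or 8, and -0.32 (SE 0.13, adjusted p = 0.26) in mTEC (edgeR). The difference of effects was 0.72 (SE 0.20, adjusted p = 0.0438, edgeR). With upper-quartile factors, or with any of libraries 1, 2, 3, 4, 5, 7, 9, 10 and 12 left out, it missed the threshold (adjusted p up to 0.139, values from 0.58 to 0.86).

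Hspa5 (BiP), the main ER chaperone and a common readout of ATF6, was the most abundant of the 10 genes. It stood at 1535, 1859 and 1380 CPM in the control cTEC libraries and stood at 1625, 1133 and 1591 CPM in Cre cTEC, with library 11 the lowest. The groups overlapped (log2 fold change -0.13, 95% confidence interval -0.45 to 0.18, adjusted p = 0.736, edgeR). In mTEC it stood at 1861, 1806 and 1684 CPM in controls and at 1334, 1434 and 1596 CPM with Cre, with no overlap (-0.29, 95% confidence interval -0.61 to 0.02, adjusted p = 0.388).

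Xbp1, whose product drives ER expansion in secretory cells, stood at 248, 301 and 307 CPM in the control cTEC libraries and reached 358, 263 and 333 CPM in Cre cTEC, which overlapped (log2 fold change 0.16, adjusted p = 0.557, edgeR). In mTEC it stood at 177, 176 and 177 CPM in controls and at 173, 166 and 154 CPM with Cre (-0.10, adjusted p = 0.78), with no overlap. Counts per gene cannot tell spliced from unspliced Xbp1. Plasma cells are rich in Xbp1, and the summed level of 10 B cell and plasma cell markers ran from 298.7 to 361.0 CPM in control cTEC and from 169 to 194 CPM in Cre cTEC. Most of that sum was Sdc1, which epithelia also make and which went from 304 ± 40.2 to 168 ± 8.44 CPM (SD, n = 3). The B cell gene Cd79a was at or below 0.711 CPM in every cTEC library, while Cd79b lay between 2.01 and 3.70 CPM and Ms4a1 between 0.89 and 6.2 CPM. Igj, another gene of this list, was higher than Cd79a, at 2.41, 18.4 and 21.2 CPM in control cTEC and 3.79, 8.68 and 7.43 CPM in Cre cTEC. In mTEC Cd79b lay between 7.72 and 11.1 CPM, Pou2af1 between 23.7 and 36.2 CPM and Igj between 4.05 and 49.1 CPM. The part of these cells in the level of Xbp1 was not tested.

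**Figure D3:**
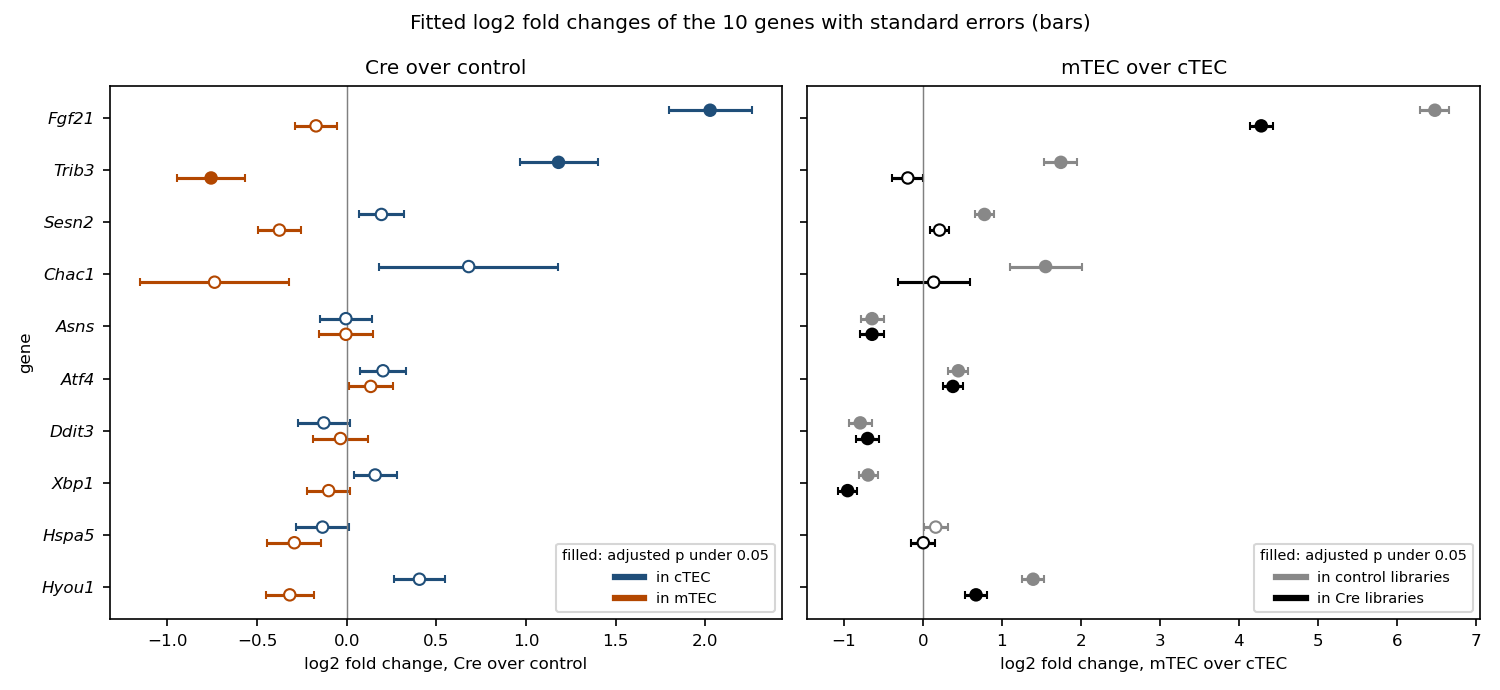
Fitted log2 fold changes of the 10 genes with their standard errors (bars), Cre over control on the left (cTEC and mTEC) and mTEC over cTEC on the right (control and Cre libraries), filled where the adjusted p was under 0.05. On the left only Fgf21 and Trib3 in cTEC (2.03 and 1.18) and Trib3 in mTEC (-0.76) are filled, and on the right the 9 filled genes of the controls become 6 with Cre.

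Most of these genes differed in level between the cell types, as did a large share of all genes. Between control mTEC and control cTEC 9 of the 10 passed, where 59.2% of all genes tested were called, with 6 higher in mTEC (Fgf21, Trib3, Chac1, Hyou1, Sesn2 and Atf4) and 3 lower (Ddit3, Xbp1 and Asns). Hspa5 did not pass (log2 fold change 0.16, adjusted p = 0.361, edgeR). Hyou1 was 2.63-fold higher in mTEC (117 ± 6.03 against 44.5 ± 8.90 CPM, SD, n = 3, adjusted p = 7.64e-08), and Atf4 1.37-fold higher (125 ± 11.7 against 91.3 ± 16.7 CPM, adjusted p = 0.00499). Ddit3, Xbp1 and Asns were lower in mTEC by 0.79, 0.69 and 0.64 on the log2 scale (adjusted p = 0.000123, 6.82e-05 and 0.000939). Between Cre mTEC and Cre cTEC 6 of the 10 passed, near the 49.6% of all genes that were called. The 6 were Fgf21, Hyou1 and Atf4 (higher in mTEC) and Ddit3, Xbp1 and Asns (lower). These calls held in every alternative, which were 19 for Chac1 and 20 for the others.

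Per length of the longest annotated transcript, Hspa5 had the highest level in control cTEC, at 433 CPM per kb. Xbp1 followed at 134 CPM per kb, then Atf4 at 45.2, Ddit3 at 34.0 and Asns at 26.8 CPM per kb. Sesn2 (15.3 CPM per kb) and Hyou1 (9.04) came next, and Fgf21 (2.46), Trib3 (1.81) and Chac1 (0.509) were last. In control mTEC Fgf21 stood second, at 222 CPM per kb, between Hspa5 (486) and Xbp1 (82.9). In Cre cTEC it stood at 10.3 CPM per kb, just under Hyou1 at 11.9.

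The other genes of these pathways mostly did not pass with genotype. The lists were drawn up by function, with earlier results of these data known. There were 11 lists of genes other than the 10, with 211 genes tested in all. Besides these pathways they covered heat shock genes, NRF2 genes, and FGF21 receptors with endocrine FGFs. In cTEC 24 of the 211 were called (15 higher and 9 lower, 11.4%), near the 9.01% of all genes. The lists were not alike: the ATF4 and CHOP partners (6 of 24), amino acid transporters (5 of 14) and NRF2 genes (6 of 15) held larger shares. The ATF4 and CHOP list also took in relatives of Trib3 and Sesn2 (Trib1, Trib2, Sesn1 and Sesn3), Cdkn1a and the sensor Ern1. Its share is therefore not that of partners and effectors alone. The 2 lists of ER chaperones and of ER-associated degradation held 0 calls. In mTEC 4 of the 211 were called, all lower (1.9%), and 11 differed in their effect (10 higher in cTEC, 5.21%). Of the 24 genes of the ATF4 and CHOP list, 7 differed in their effect (6 higher in cTEC), where 4.01% of all genes did. Trib1, Sesn1 and Cdkn1a were among them. Of the 24 calls in cTEC, 11 held in every alternative.

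The sensors came first. Ern1, which encodes IRE1, rose in Cre cTEC from 12.1, 14.9 and 17.6 CPM to 32.4, 33.2 and 25.2 CPM, with no overlap (log2 fold change 1.02, SE 0.16, adjusted p = 0.000453, edgeR). In mTEC it stood at 25.5 ± 1.95 and 25.2 ± 3.85 CPM (SD over 3 libraries, log2 fold change -0.02, adjusted p = 0.976), and the difference of effects was 1.03 (SE 0.22, adjusted p = 0.0119). Both calls held in every alternative. Control cTEC lay below control mTEC in Ern1 (log2 gap 0.77, adjusted p = 0.000456), and the Cre groups did not differ by the test (-0.26, adjusted p = 0.174). Of 14 sensor and processing genes, 2 rose in Cre cTEC, Ern1 and Creb3l2 (0.45, adjusted p = 0.026, not past the threshold when library 9 or 10 was left out, at up to 0.166), and 12 did not pass. Atf6 stood at 43.2 ± 2.50 and 43.9 ± 9.77 CPM in control and Cre cTEC (adjusted p = 0.946).

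Of the 18 genes of the eIF2 kinases, phosphatases and exchange factor, 1 rose in Cre cTEC. That was Eif2ak4, the amino acid sensor GCN2, from 30.9 ± 1.66 to 39.8 ± 3.61 CPM (SD over 3 libraries, log2 fold change 0.37, adjusted p = 0.0469, edgeR). The call was lost in 12 of 20 alternatives, among them without library 1, 2, 3, 5, 6, 7, 8, 9, 10 or 12 (adjusted p up to 0.193). Eif2ak3, which encodes PERK, stood at 42.1 ± 3.47 and 45.6 ± 4.56 CPM in cTEC (adjusted p = 0.677), and Eif2ak1 and Eif2ak2 did not pass either (0.834 and 0.172). Ppp1r15a (GADD34), which reverses eIF2 phosphorylation and is an ATF4 target, stood at 120 ± 6.28 and 143 ± 41.2 CPM (adjusted p = 0.523), with library 11 below the controls at 95.1 CPM. It passed without library 11 (adjusted p = 0.0464).

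The list of ATF4 and CHOP partners and effectors held 24 genes, relatives of Trib3 and Sesn2 among them. In Cre cTEC 5 of the 24 rose (Ern1 again, Stc2, Trib1, Trib2 and Atf5), 1 fell (Sesn1) and 18 did not pass. Stc2, a secreted stanniocalcin of the PERK branch, went from 6.54, 7.71 and 5.26 CPM to 19.2, 9.65 and 13.4 CPM (edgeR log2 fold change 1.14 with an SE of 0.24, adjusted p = 0.00437). In mTEC it went from 7.97 ± 0.859 to 5.35 ± 0.835 CPM, which did not pass, and the difference of 1.72 passed (SE 0.35, adjusted p = 0.00822). Trib1, a relative of Trib3, rose by 0.51 in cTEC (adjusted p = 0.00991, lost without library 10, adjusted p = 0.0711), and its effects differed by 0.84 (adjusted p = 0.00822). Sesn1, a relative of Sesn2, fell by 0.67 in cTEC, from 358 ± 43 to 225 ± 36.7 CPM (adjusted p = 0.0012), and its effects differed by -0.86 (adjusted p = 0.00911). Trib2 and Atf5, both named after their values were seen, had log2 fold changes of 0.52 and 0.90. The Trib2 call needed libraries 7, 10 and 12 (adjusted p up to 0.0945 without 1 of them), and the Atf5 call was lost in 12 of 20 alternatives, among them with library 1, 2, 3, 5, 8, 9, 10, 11 or 12 left out (up to 0.209). The median of the list was 0.20 in cTEC.

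In mTEC 2 of these 24 genes fell and none rose. Nupr1, a stress-induced chromatin protein, averaged 48.1 ± 3.47 CPM without Cre and 31.3 ± 3.49 CPM with it (SD over 3 libraries; edgeR log2 fold change -0.62, adjusted p = 0.0286). It missed the threshold with upper-quartile factors or with any of libraries 1 to 5 left out (up to 0.182). Cdkn1a, the cell cycle inhibitor p21, fell by 0.56 on the log2 scale (adjusted p = 0.016), a call that needed each of libraries 2 to 5 (up to 0.131 without 1 of them). Atf3 (150 ± 11.7 and 215 ± 79.6 CPM in cTEC) and Ddit4 (22.0 ± 9.91 and 32.1 ± 2.82 CPM), both induced in this response, did not pass (adjusted p = 0.227 and 0.118). Without library 11 Atf3 passed in cTEC, and without library 9 Ddit4 did. Atf3 is also an immediate early gene. The summed level of 23 immediate early genes ran from 7480 to 9078 CPM in control cTEC and from 7679 to 13137 CPM in Cre cTEC. Of 22 tested, 2 were called there, near the 9.01% of all genes. Without library 11, 12 of the list were called, a larger share than the 2294 of 17547 genes called in that fit. The part of the immediate early genes in these results was not tested.

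Among the amino acid genes, calls in the lists of enzymes and of tRNA synthetases were near or below the 9.01% of all genes. The transporters lay above that share, with 5 of 14 called in cTEC in both directions. Of 22 enzymes of amino acid synthesis and one-carbon metabolism, the list closest to Asns, 2 rose in Cre cTEC and 20 did not pass. Mthfd2, a mitochondrial folate enzyme and ATF4 target, went from 3.62, 6.03 and 3.98 CPM to 10.0, 8.10 and 10.1 CPM (edgeR log2 fold change 1.06 with an SE of 0.20, adjusted p = 0.00184). Aldh1l2, of the same folate pathway, rose by 0.97 (adjusted p = 0.0163, lost without library 8, adjusted p = 0.0902). Of 14 amino acid transporters, 3 rose and 2 fell. The largest value was that of the lysosomal transporter Slc36a1 (1.54, adjusted p = 0.0111), which rested on library 10: it held 920 CPM, against 268 and 318 CPM in libraries 11 and 12, and without it the value was 0.76 and did not pass. Slc7a7 rose from 17.4 ± 1.85 to 28.3 ± 2.65 CPM (adjusted p = 0.000623), and the cystine transporter Slc7a11 by 0.91 (adjusted p = 0.00677, lost with voom). The glutamine transporter Slc1a5 fell from 31.4 ± 2.31 to 18.2 ± 2.46 CPM (adjusted p = 0.000778), and Slc3a2, the heavy chain that Slc7a7 and Slc7a11 need, fell by 0.43 (adjusted p = 0.0294, lost without library 3, 7, 9 or 10, up to 0.118; named after its values were seen). Of 20 cytosolic tRNA synthetases 1 rose, Vars (0.50, adjusted p = 0.0461, lost in 11 alternatives, among them without library 1, 2, 3, 5, 6, 7, 8, 9, 10 or 12, up to 0.26).

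The chaperone and degradation genes downstream of ATF6 and XBP1 did not pass with genotype in the edgeR fit of all 12 libraries. Of 26 ER chaperones and folding enzymes, edgeR called 0 in cTEC and 0 in mTEC, with 6 and 9 at an unadjusted p under 0.05. Over all 17268 genes tested, 3434 in cTEC and 2528 in mTEC had such a p, so the 9 of 26 in mTEC were a larger share. DESeq2 called 0 and 4 of the 26, against 1837 and 599 of all genes. With voom it was 2 and 5, against 2193 and 1672 of all genes. Without library 11, edgeR called 1 and 3 of the 26, against 2294 and 984 of all genes. The medians were -0.14 in cTEC and -0.16 in mTEC (-0.02 and 0.01 over all genes), beside values of -0.13 and -0.29 for Hspa5. Of the 26, 9 were positive in cTEC and 8 in mTEC. Of 33 genes of ER-associated degradation and protein entry, edgeR called 0 in each cell type (3 and 4 at an unadjusted p under 0.05), DESeq2 0 and 1, and voom 0 and 2. Without library 11, edgeR called 0 and 2 of these 33. Between control mTEC and control cTEC 17 of the 26 chaperone genes were called, 10 higher and 7 lower, in a comparison in which 59.2% of all genes were called.

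Other stress responses gave few calls or calls in both directions. Of 20 cytosolic heat shock genes 1 fell in Cre cTEC, Hspb1, from 32.5, 37.7 and 29.2 CPM to 10.3, 19.5 and 17.5 CPM (log2 fold change -1.10, adjusted p = 0.000484, edgeR). Of 15 oxidative stress genes under NRF2, 2 rose and 4 fell. Gclc, which makes glutathione, went from 285 ± 49 to 185 ± 25 CPM (SD, n = 3, adjusted p = 0.00382), and Osgin1 and Gstm1 fell by 1.37 and 0.74 on the log2 scale (adjusted p = 0.00015 and 0.00054). The calls of Hspb1, Gclc, Osgin1 and Gstm1 held in all 20 alternatives. Both rising calls were lost in some: Srxn1 (0.71, adjusted p = 0.0387) in 10 of 20, and Txnrd1 (0.44, adjusted p = 0.0299, named after its values were seen) in 4. For Srxn1 these were the robust fit, the cTEC libraries alone, and library 1, 2, 3, 7, 8, 9, 10 or 12 left out (up to 0.288), and for Txnrd1 library 7, 8, 9 or 10 left out (up to 0.198).

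In mTEC 2 of the 15 NRF2 genes fell, Gsta4 and Gstm1. Gsta4, a glutathione transferase, held 21.2, 26.7 and 31.8 CPM without Cre and 14.1, 6.15 and 11.7 CPM with it, with no overlap (edgeR log2 fold change -1.31, adjusted p = 0.0068). That call held in all 20 alternatives, the only one of the 4 list calls in mTEC to do so. In cTEC it did not pass (0.16, adjusted p = 0.777), and the effects differed by 1.46 (adjusted p = 0.0101), in all 19 alternatives. Gstm1 fell by 0.64 in mTEC (adjusted p = 0.0129), not past the threshold when library 1, 3 or 5 was left out (up to 0.105).

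**Figure D4:**
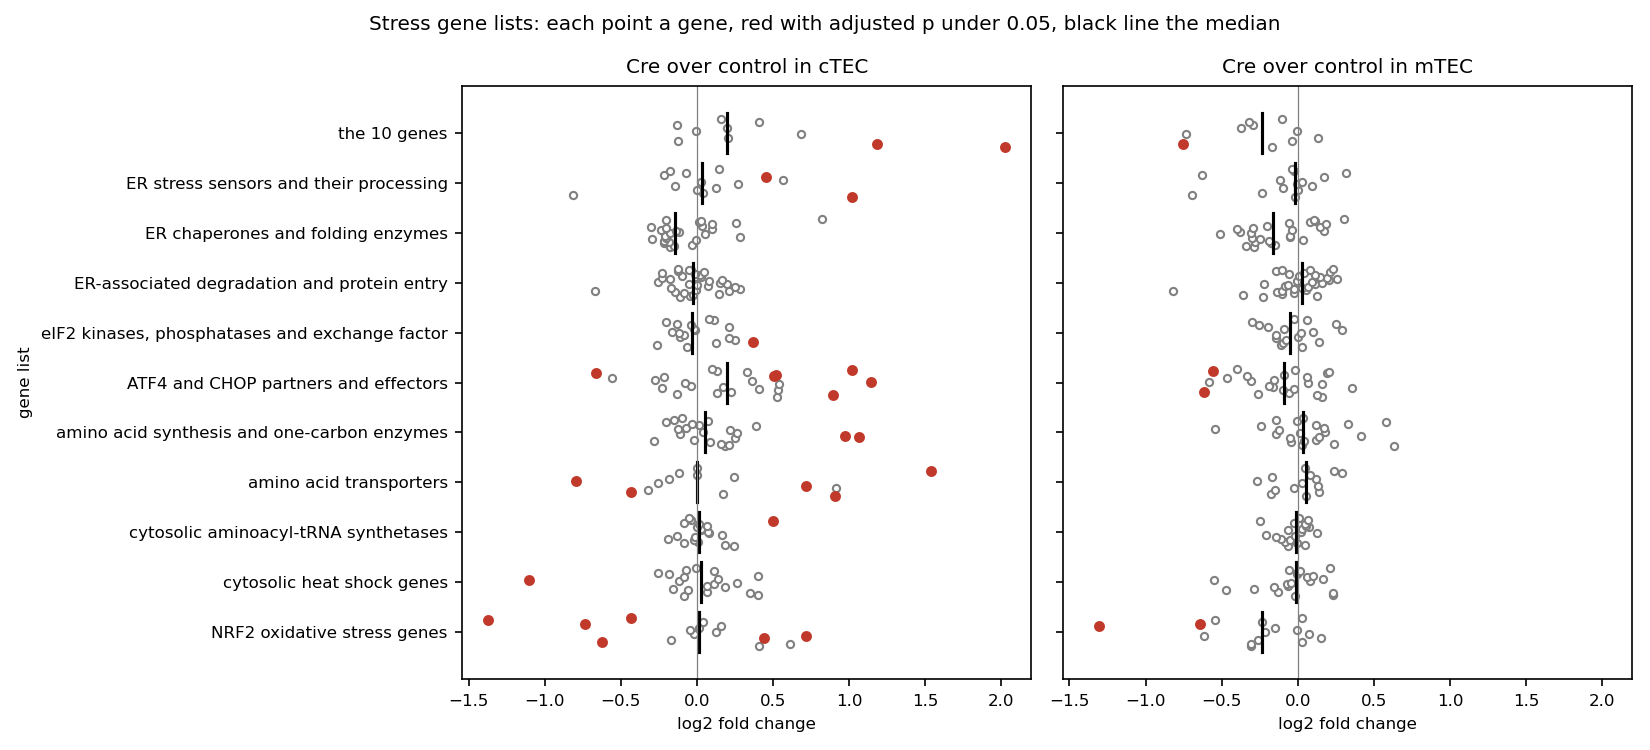
Log2 fold changes of Cre over control in cTEC (left) and mTEC (right) for the 10 genes and 10 lists of stress genes, each point a gene, red where the adjusted p was under 0.05, with the median as a black line. In cTEC the calls of single genes lie on both sides of 0 and the chaperone list has a median of -0.14 with 0 calls, while in mTEC the red points are all below 0.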

How the data were processed

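RNA of sorted thymic epithelial cells was counted in 12 libraries, put in 4 groups of 3 from their labels. The values are raw read counts for each gene symbol, deposited by the authors as 1 table. STAR, HTSeq, edgeR and mm9, a mouse build, stand in the list of tools and builds per the submitters' processing notes, with no version, annotation or strand setting. The library kit (SMARTer low input, per the labels) does not mark strand.

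From these counts, CPM were computed with TMM factors. The test was the quasi-likelihood test of edgeR 4.0.16 (R 4.3.3), two-sided, after filterByExpr, with all 12 libraries in 1 fit (8 residual degrees of freedom), Benjamini-Hochberg adjusted over 17268 genes, for 5 comparisons at a threshold of 0.05. All adjusted p-values come from it unless another tool is named. The script was run on simulated data for the genotype effects in cTEC and in mTEC only. Those data were drawn from the kind of model that the test assumes, with the spread estimated from these libraries. A positive fold change is higher with Cre or in mTEC, and a difference of effects is that in cTEC minus that in mTEC. Libraries of a group differed by a chi-square per degree of freedom of 3.23 to 12.4, so none was a copy. Reads carry no molecular identifiers and are not independent molecules, so no counting intervals are given.

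Alternatives were DESeq2 1.42.0 (size factors alone, and its Wald test), upper-quartile factors, voom with quality weights in limma 3.58.1, a robust fit, no filter, a filter of 5 CPM in 3 libraries, the compared groups alone, and each library left out. The members and lists were chosen with earlier results of these data known. Genes named were the 10 members, 17 fixed genes, up to 4 genes per list (20 lists) and comparison with the smallest p among those called, and 5 genes most like Fgf21 and Trib3. Promoters and lengths come from RefSeq and GENCODE M21 on GRCm38, another build than that of the counts. A gene that the rule would name is not reported here.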

Additional observations from a re-analysis of the deposited data

Results flagged for a closer look

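The genotype effect differed between cTEC and mTEC in 3 of the 10 genes and in 1 sensor gene, each by the test of the difference itself (edgeR, cTEC effect minus mTEC effect, log2). That test called 4.01% of all genes. The share of all genes whose groups do not overlap was not computed. The difference was 2.20 for Fgf21, which was higher in 3 of 3 Cre cTEC libraries and overlapped its controls in mTEC. It was 1.94 for Trib3, higher in 3 of 3 Cre cTEC libraries and lower in 3 of 3 Cre mTEC libraries than any control. Hyou1 differed by 0.72, with its groups ordered as in Trib3, but this call (adjusted p = 0.0438) was lost in 10 of 19 alternatives, with upper-quartile factors or when library 1, 2, 3, 4, 5, 7, 9, 10 or 12 was left out, while those of Fgf21, Trib3 and Ern1 were lost in none. Ern1 differed by 1.03, with 3 of 3 Cre cTEC libraries above the controls. The rule covered the 10 genes and the 17 fixed genes.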

How the results depend on the processing

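No value of the 10 genes past the threshold changed direction in any alternative. In cTEC 1555 genes were called, and 1018 to 2294 with a library left out (the lowest counts without library 7, 9 or 10, the highest without 11). In mTEC 358 were called, but 599 with DESeq2, 1672 with voom, 1049 with no filter, 1026 with the mTEC libraries alone, and 78 to 984 with a library left out. For the difference of effects 692 were called, 1131 with DESeq2, 1398 with voom, 1140 with no filter and 371 to 1644 with a library left out. Of the 10 genes, 2 were called in cTEC (2 to 3 with a library left out) and 3 in the difference (2 to 4). In mTEC 1 was called (Trib3), with 0 under upper-quartile factors, 2 with DESeq2, 2 with voom (Sesn2 joined Trib3 in both) and 0 to 2 with a library left out. Counts between cell types moved by less than 1.5 times in every alternative, from 8858 (5 CPM filter) to 11497 (voom) in controls and from 7305 (compared groups alone) to 9846 (without library 11) with Cre. With a library left out they ran from 8971 to 11027 and from 7351 to 9846. The cause of these changes was not tested. Upper-quartile factors moved the median of all genes to -0.10 in the difference of effects, and no filter moved it to -0.12 between the controls of the cell types. Depth limits Chac1 (3 to 34 counts per library) and, in control cTEC, Fgf21 (13 to 16 counts) and Trib3 (20 to 26 counts). No paired analysis was possible because the groups share no replicate numbers.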
